A study of Mus musculus with 18 samples.

Results

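The genes described here are the clustered Hox genes, the 39 rows of the count tables whose symbol is Hox, a cluster letter from a to d and a position number, among 25965 rows in all. They fall on 4 clusters in mm10: 11 HoxA genes on chromosome 6, 10 HoxB genes on chromosome 11, 9 HoxC genes on chromosome 15 and 9 HoxD genes on chromosome 2. RNA of CD45.2+ B220+ Mac1- cells, a gate for B cells, had been sequenced from the femoral marrow of C57BL/6 mice aged 12 to 16 months, 1 library per animal number. All mice carried Vav-Cre (Vav.Cre T/+ in the labels), a transgene that drives Cre in blood-forming cells and their descendants. Females gave 5 libraries of genotype Smchd1 del/+ (called het here) and 5 of genotype Smchd1 del/del. Males gave 4 het and 4 del/del libraries. Every control therefore lacked 1 Smchd1 allele, and mice with both alleles intact were not among the samples analysed here. Counts cover the whole gene, so residual Smchd1 transcript does not say how much protein was left.

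Hox genes encode homeodomain transcription factors that give cells a position along the body axis, and within a cluster they lie in the order in which they are used, with low numbers at one end and high numbers at the other. In blood formation, the middle members of HoxA and HoxB are best known from stem and early progenitor cells, and their transcripts decline as cells mature. Trithorax complexes keep the clusters open and Polycomb complexes keep them closed. SMCHD1 is a chromatin protein that shapes long-range contacts and silencing, known for the inactive X chromosome, imprinted clusters, clustered protocadherins and, in other cells, the Hox clusters.

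Library totals ran from 9788112 to 29405395 reads. Levels are given as CPM, reads per 1000000 counted reads with TMM scaling. Smchd1, the targeted gene, had a log2 fold change of -0.82 in females (SE 0.09, edgeR quasi-likelihood adjusted p = 0.00119) and -0.74 in males (SE 0.08, adjusted p = 0.00888), with no overlap between genotypes in either sex. The sort held the defining B-cell genes: 9 of 9 B-lineage markers were tested, and their summed level was 7182 to 8567 CPM in all 18 libraries, with Cd79a (1130 to 1282 CPM in female het libraries) among them. It also held RNA of other cells, whose markers are set beside the Hox values further on. Since these are bulk samples, fewer cells that express a Hox gene and less of its RNA per cell cannot be told apart.

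Hox transcripts were sparse, concentrated in the middle of HoxA and at 2 neighbouring positions of HoxB. The 39 genes took 17.5 to 41.2 CPM (here without TMM scaling), and 10122 reads in all 18 libraries. HoxA held 68.2% of those reads, HoxB 29.3%, HoxC 2.30% and HoxD 0.207%. At least 1 read fell in 26 of the 39 genes. The other 13 were at 0 in all 18 libraries: Hoxa11, Hoxb1, Hoxb8, Hoxc10 to Hoxc13, Hoxd1 and Hoxd9 to Hoxd13. The 10 genes that passed a mean of 0.5 CPM in some group were Hoxa2 to Hoxa7, Hoxa9, Hoxb3, Hoxb4 and Hoxc4.

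Per length of exon (RPKM, which is CPM per kilobase of GENCODE M21 exon), Hoxa7 stood highest at 3.0 ± 0.867 (SD over 18 libraries) and Hoxb4 followed at 2.38 ± 0.543. Hoxa6 came next at 1.26 ± 0.582 RPKM and Hoxa5 at 0.876 ± 0.263. Hoxa9 was at 0.672 ± 0.199 RPKM, lower per length than its read number shows because its exons span 5580 bases. The ranges of mean ± SD overlapped between each of these genes and the next in order. Of the Hoxa7 exon bases, 20.4% also belong to the antisense RNA Hoxaas3. For Hoxb3, 52.9% belong to the antisense RNA Hoxb3os. Reads in those stretches cannot be assigned to 1 gene, since the strand setting of the counting is not known here.

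**Figure D1:**
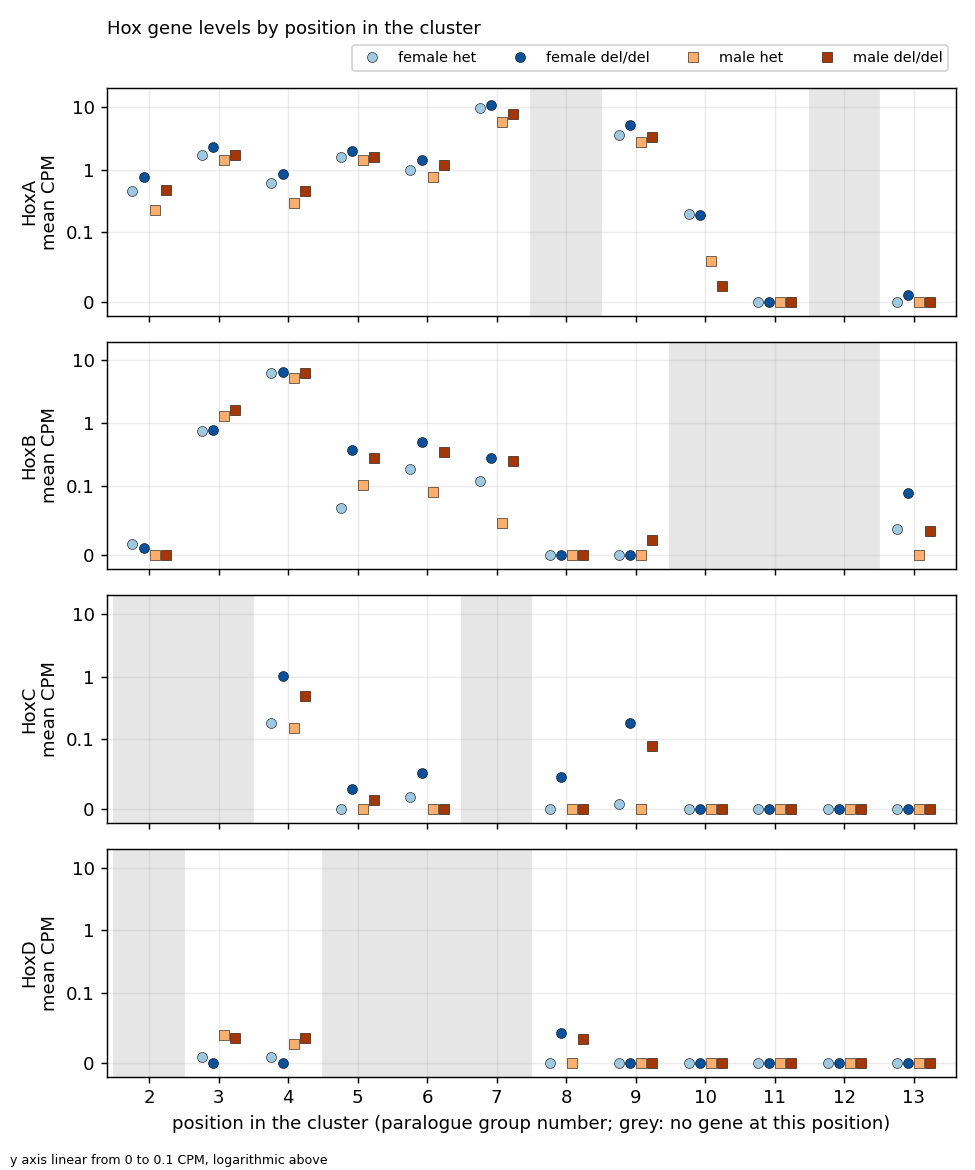
Mean CPM of each Hox gene (vertical axis, linear up to 0.1 CPM and logarithmic above) by its position in clusters A to D, from position 2 on, for the 4 groups of 5 or 4 libraries. HoxA positions 2 to 9 and HoxB positions 3 and 4 carry most of the signal, HoxC signal is at position 4 and, in del/del, position 9, and HoxD is near 0.

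The comparison of del/del with het asks whether loss of the remaining Smchd1 allele is accompanied by a change of Hox transcripts in these cells. No Hox gene reached an adjusted p under 0.05 in edgeR's quasi-likelihood test, while the fitted differences of the tested genes were all positive, from 0.14 for Hoxb4 to 2.02 for Hoxc4 on the log2 scale over both sexes. In females 0 of 10 tested Hox genes were called, against 0.252% of all 13501 genes tested. In males 0 of 7 were called, against 0.119% of 13413. With both sexes in 1 fit, 0 of 10 were called, against 0.556% of 14017, and the lowest adjusted p was 0.205. DESeq2, limma voom and 8 other alternatives also called 0 in each comparison.

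At an unadjusted p under 0.05, the fit over both sexes held 4 Hox genes, Hoxc4, Hoxa2, Hoxa9 and Hoxa7, all higher in del/del, against 4.3% of all genes higher at that p. Females held 2, Hoxc4 and Hoxa9 (background 3.12% higher), and males held 1, Hoxa7 (background 2.32% higher). The log2 fold change (del/del minus het, positive where del/del is higher) was above 0 for 10 of 10 in females, 7 of 7 in males and 10 of 10 over both sexes, where 48.8%, 50.6% and 49.9% of all tested genes were. The median over tested Hox genes was 0.40 in females, 0.27 in males and 0.36 over both sexes. The median over all tested genes was -0.0044, 0.0013 and -0.00048 in the same order. The low-count filter favours genes that are high in 1 group: Hoxc4 passed it in females through 1 het and 4 del/del libraries. These counts are therefore a description of the genes that passed. The authors' deposited table lists the same numbers of Hox genes, 10 for females and 7 for males, and none at an adjusted p under 0.05. Its value for Hoxc4 is a log2 fold change of 2.31 with an adjusted p of 0.656.

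**Figure D2:**
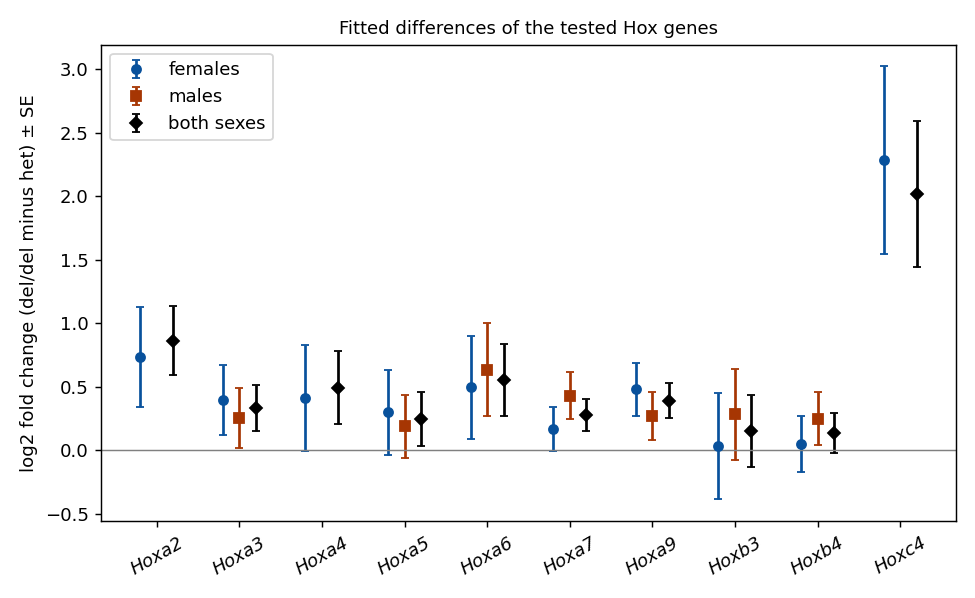
Fitted log2 fold change (del/del minus het) ± SE of each tested Hox gene in females, in males and over both sexes. All points lie above 0, Hoxc4 lies highest with the widest error bars, and Hoxb3 and Hoxb4 lie nearest 0 in females.

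The relative difference in summed level was larger for HoxC than for HoxA or HoxB, on 233 reads in all 18 libraries. Its summed level was 0.210 ± 0.228 CPM in female het and 1.33 ± 1.02 in female del/del libraries (SD, n = 5 each), and 0.155 ± 0.219 in male het and 0.595 ± 0.0872 in male del/del libraries (SD, n = 4 each). In males the del/del libraries ran from 0.489 to 0.667 CPM and the het libraries from 0 to 0.464. Hoxc4 (ENSMUSG00000075394, chromosome 15, 103018936 to 103036843, plus strand) made most of it. It encodes a homeodomain factor known from activated B cells.

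Hoxc4 read 17, 1, 4, 2 and 0 times in the female het libraries, which is 0.593, 0.0864, 0.135, 0.112 and 0 CPM. In female del/del libraries it read 45, 19, 23, 5 and 18 times, or 2.32, 0.801, 0.889, 0.231 and 0.861 CPM. Thus 4 of 5 del/del libraries exceeded every het library, and del/del library 1 stood far above the rest. Male het libraries held 0, 0, 8 and 2 reads (0, 0, 0.464 and 0.156 CPM), and male del/del libraries held 11, 9, 11 and 11 (0.511, 0.400, 0.488 and 0.565 CPM). In males 3 of 4 del/del libraries lay above the highest het library, and the fourth lay below it. The log2 fold change was 2.28 in females (SE 0.74, quasi-likelihood adjusted p = 0.659) and 2.02 over both sexes (SE 0.57, adjusted p = 0.205). Without female del/del library 1 the value over both sexes was 1.68, and without female het library 1 it was 2.57. In females alone it ran from 1.75 without del/del library 1 to 3.50 without het library 1.

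Hoxc4 and Hoxa2, which had the largest fitted differences over both sexes and in females among the genes that passed the filter, are shown with their RefSeq promoter window (GRCm38.p6), 250 bases before to 50 after the annotated start, as the DNA on which their transcription begins. They were chosen after their values were seen. Capitals mark CpG dinucleotides, the sites of DNA methylation. The Hoxc4 window is chr15:103034145-103034444 on the plus strand, inside the longer Hoxc4 row of the count table, and the Hoxa2 window is chr6:52164782-52165081 on the minus strand, each with 9 CpGs.
Hoxc4: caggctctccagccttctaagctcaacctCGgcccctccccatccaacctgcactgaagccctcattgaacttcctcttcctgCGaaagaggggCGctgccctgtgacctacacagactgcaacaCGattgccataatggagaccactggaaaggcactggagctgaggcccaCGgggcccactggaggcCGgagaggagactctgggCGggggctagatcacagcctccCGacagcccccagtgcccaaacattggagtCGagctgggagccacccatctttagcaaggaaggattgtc
Hoxa2: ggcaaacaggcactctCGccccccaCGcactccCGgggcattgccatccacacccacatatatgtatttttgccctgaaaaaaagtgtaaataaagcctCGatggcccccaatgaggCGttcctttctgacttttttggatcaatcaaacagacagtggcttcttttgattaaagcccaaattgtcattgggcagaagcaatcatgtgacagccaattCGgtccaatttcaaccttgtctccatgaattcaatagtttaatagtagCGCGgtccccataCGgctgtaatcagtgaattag
Among 24 windows of 22 Hox genes in the RefSeq table the median was 14.5 CpGs, and among 32841 windows of all genes it was 7. The Hox-Pbx recognition word TGATNNAT, sought on both strands, was present in 4 of the 24 Hox windows (16.7%) and in 8.85% of all windows. In the Hoxa2 window it is on the strand opposite to the printed one, where the letters read atcaatca. The leftmost of these letters is 111 bases before the start. The word is not in the Hoxc4 window. A match is a description of the letters and no evidence of binding.

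The HoxC genes next to Hoxc4 read very few times, mostly in del/del libraries. Hoxc9, known from thoracic patterning and motor neurons, was named here after its values were seen. It read 0, 0, 1, 0 and 0 times in female het and 2, 0, 16, 1 and 3 times in female del/del libraries, so 1 library held 16 of the 22 del/del reads. It read 0 times in each male het library and 1, 2, 4 and 1 times in the male del/del libraries. The female ratio of depth-scaled reads was 21.9 (95% exact interval 3.55 to 905, counting error only), and the male level was at least 1.86-fold higher than a floor of 3 reads over the het group. In a fit with no filter, the log2 fold change over both sexes was 3.78 (SE 0.87, quasi-likelihood adjusted p = 0.0676). Leaving out female del/del library 3, the one with 16 reads, gave 2.91. Leaving out female del/del library 2, which had 0 reads, gave 4.01 with a quasi-likelihood adjusted p of 0.0176. It was the one case among the values examined in which a Hox gene passed the threshold. In fits with no filter that left out a library, or added a covariate or block, only Hoxb5, Hoxb6, Hoxb7, Hoxc9 and Hoxd8 were examined.

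Hoxc5 read 3 times in female del/del libraries and once in a male del/del library, and 0 times in het libraries. Hoxc8 read 5 times, all in female del/del libraries 1 and 3. Hoxc6 read 2 times in female het and 5 times in female del/del libraries. Hoxc10 to Hoxc13, the genes beyond Hoxc9 that serve the posterior body and hair, were at 0 in every library. Reads of HoxC thus lay at positions 4 to 9 and not beyond.

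**Figure D3:**
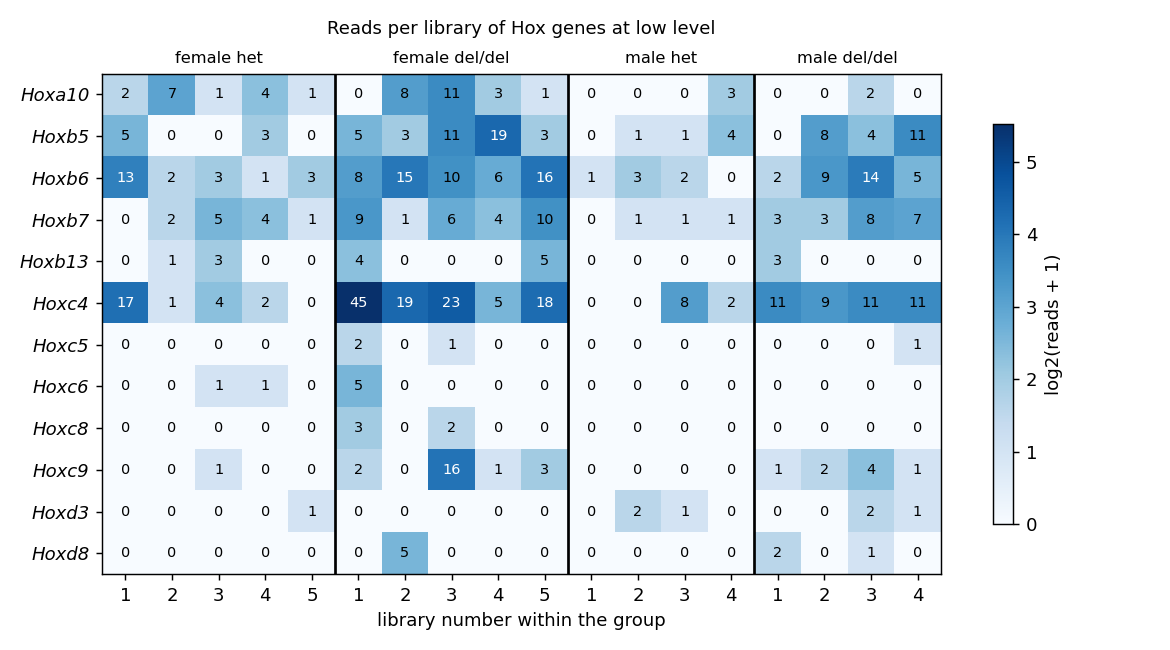
Reads of 12 Hox genes at low level (rows) in each of the 18 libraries (columns, by group and library number), with colour on a log2(reads + 1) scale. Hoxc4 and Hoxb5 to Hoxb7 read more often in del/del than in het libraries of both sexes, and the 16 Hoxc9 reads of female del/del library 3 stand out. Reads are not scaled for depth, which was mostly lower in male het than in male del/del libraries.

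HoxA held the highest levels and the most tested genes, 7 in females and 5 in males. Its summed level was 18.8 ± 1.73 CPM in female het and 23.3 ± 4.40 in female del/del libraries, and 12.6 ± 1.10 and 16.4 ± 3.26 in the male groups. The ranges overlapped in both sexes.

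Hoxa2 (chromosome 6, 52162351 to 52165413, minus strand), best known from the hindbrain and the face, was low everywhere. Female het libraries were at 0.628, 0.346, 0.474, 0.559 and 0.255 CPM and female del/del libraries at 0.361, 0.590, 0.850, 0.832 and 1.20. Male het libraries were at 0.308, 0.148, 0.290 and 0.156 CPM and male del/del libraries at 0.511, 0.355, 0.532 and 0.513. In males every del/del library exceeded every het library, on 2 to 12 reads each, and in females 3 of 5 did. Hoxa2, Hoxb7 and Hoxc9 were the 3 Hox genes with that separation in males, where 1.32% of 18026 genes with reads had it. In females no Hox gene had it, against 0.789% of 18115. Over both sexes Hoxa2 had a log2 fold change of 0.86 (SE 0.27, quasi-likelihood adjusted p = 0.318).

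Hoxa3, which is needed for the thymus and parathyroid, was at 1.92, 1.12, 2.27, 1.90 and 1.45 CPM in female het and 1.60, 1.94, 3.40, 1.94 and 2.63 in female del/del libraries. Male het libraries were at 1.23, 1.29, 1.74 and 1.33 CPM and male del/del libraries at 1.86, 1.47, 2.04 and 1.33. The groups overlapped in both sexes, with a log2 fold change of 0.34 over both (SE 0.18, quasi-likelihood adjusted p = 0.788).

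Hoxa4, an axial patterning gene, was at 0.697, 0.173, 0.813, 1.06 and 0.341 CPM in female het and 0.826, 1.10, 0.850, 0.971 and 0.478 in female del/del libraries. Male het libraries were at 0.206, 0.198, 0.290 and 0.469 CPM and male del/del libraries at 0.558, 0.400, 0.488 and 0.359. These also overlapped (log2 0.49, SE 0.29, quasi-likelihood adjusted p = 0.801 over both sexes).

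Hoxa5, known from lung development and from the choice between red cell and myeloid fates, was at 1.78, 1.38, 2.40, 0.670 and 1.62 CPM in female het and 1.14, 2.36, 2.55, 1.85 and 1.86 in female del/del libraries. Male het libraries were tight at 1.23, 1.48, 1.39 and 1.48 CPM, and male del/del libraries were at 2.18, 1.24, 1.64 and 1.33. Its log2 fold change was 0.25 over both sexes (SE 0.21, quasi-likelihood adjusted p = 0.837), and in males 0.0010 without del/del library 1. Hoxa6, its neighbour in the cluster, was at 1.01, 0.778, 1.96, 0.391 and 0.852 CPM in female het and 1.24, 0.928, 2.13, 1.02 and 1.91 in female del/del libraries. Male het libraries were at 0.514, 0.791, 0.522 and 1.17 CPM and male del/del libraries at 1.25, 1.38, 1.42 and 0.616, so 3 of 4 lay above the het range. Hoxa6 had a log2 fold change of 0.55 (SE 0.28, quasi-likelihood adjusted p = 0.777).

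Hoxa7, a gene of early blood progenitors and of leukaemias with KMT2A fusions, was the most abundant Hox transcript. Female het libraries lay close together at 9.07, 10.4, 9.04, 9.72 and 9.71 CPM, while female del/del libraries were spread over 6.61, 9.99, 10.8, 12.6 and 13.6. In males, het libraries were at 5.35, 5.29, 5.51 and 6.80 CPM and male del/del libraries at 9.85, 6.49, 8.60 and 5.95. The del/del values reached above the het range in both sexes and, in females, also below it. The log2 fold change was 0.17 in females (SE 0.17, quasi-likelihood adjusted p = 0.975), 0.43 in males (SE 0.19, adjusted p = 0.9998) and 0.28 over both (SE 0.13, adjusted p = 0.716).

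Hoxa9, which supports stem cells and early lymphoid progenitors and acts with Meis1 in leukaemia, was at 3.0, 3.28, 4.77, 3.85 and 3.11 CPM in female het and 5.32, 4.13, 5.84, 3.75 and 6.17 in female del/del libraries. In males, het libraries were at 3.08, 2.67, 2.67 and 2.58 CPM and male del/del libraries at 3.39, 3.51, 3.81 and 2.52. In each sex 3 del/del libraries exceeded the highest het library. Its log2 fold change was 0.48 in females (SE 0.21, quasi-likelihood adjusted p = 0.975) and 0.39 over both sexes (SE 0.14, adjusted p = 0.472). Beyond it the cluster was nearly silent: Hoxa10 read 43 times in 11 libraries, Hoxa11 was at 0 and Hoxa13 read 1 time.

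**Figure D4:**
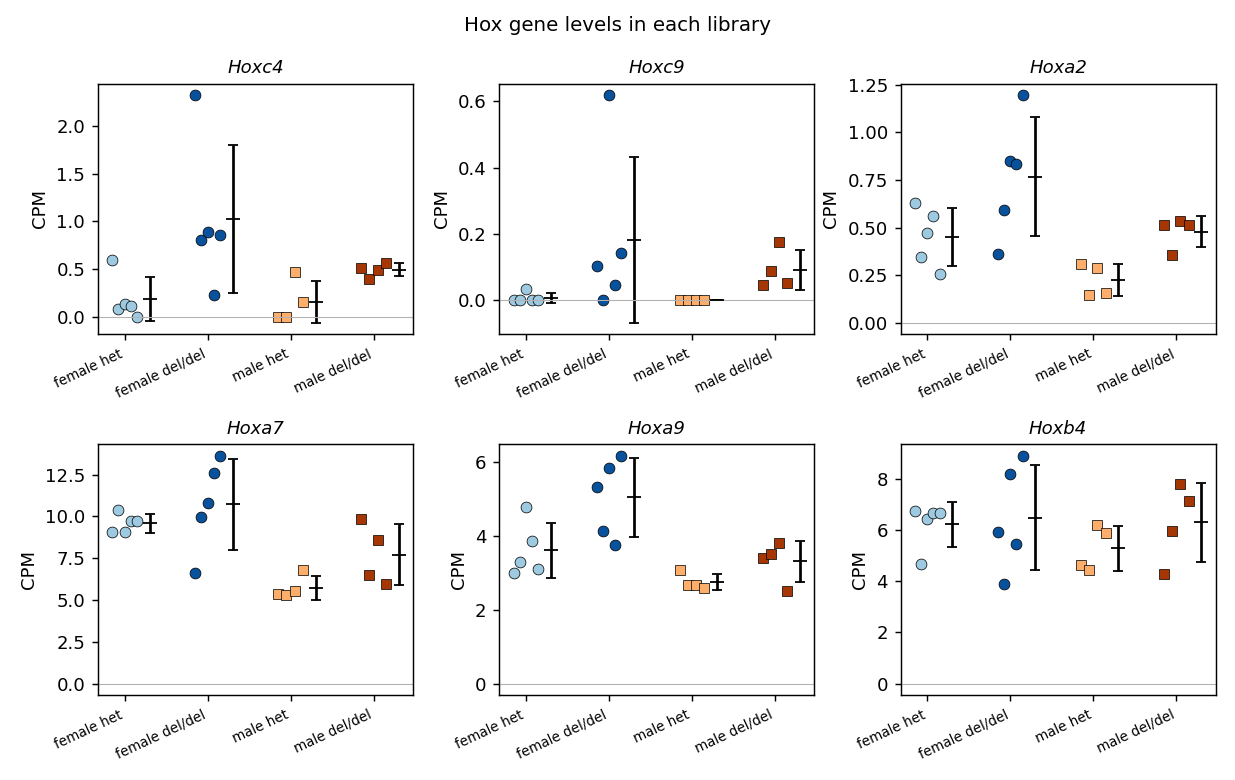
CPM of 6 Hox genes in each library (points), with the mean ± SD of each group beside them. The 4 male del/del libraries of Hoxa2 and Hoxc9 lie above all male het libraries, and for Hoxa7, Hoxa9 and Hoxb4 the groups overlap.

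The tested HoxB genes differed less than those of HoxA in females (median log2 fold change 0.04 against 0.41), but not in males (0.27 for each cluster). The summed level of HoxB was 7.40 ± 0.912 CPM in female het and 8.49 ± 2.54 in female del/del libraries, and 6.84 ± 1.31 and 8.84 ± 2.52 in the male groups. Hoxb4, known for expanding stem cells when it is supplied in excess, was at 6.73, 4.67, 6.43, 6.65 and 6.64 CPM in female het and 5.94, 3.88, 8.19, 5.46 and 8.89 in female del/del libraries. In males, het libraries were at 4.63, 4.45, 6.21 and 5.86 CPM and male del/del libraries at 4.28, 5.95, 7.80 and 7.13. In both sexes 2 del/del libraries lay above the het range and at least 1 lay below it. The log2 fold change was 0.05 in females (SE 0.22) and 0.14 over both sexes (SE 0.16, quasi-likelihood adjusted p = 0.867), and it turned to -0.030 in females under limma voom.

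Hoxb3, which acts beside Hoxb4 in stem cells, was at 1.15, 0.864, 0.711, 0.391 and 0.639 CPM in female het and 0.981, 0.506, 1.0, 0.277 and 1.10 in female del/del libraries. In males, het libraries were at 0.925, 1.19, 1.97 and 1.17 CPM and male del/del libraries at 1.02, 1.07, 2.17 and 2.26. No female del/del library exceeded the highest het library. Its log2 fold change was 0.03 in females (SE 0.42) and 0.15 over both sexes (SE 0.28, quasi-likelihood adjusted p = 0.922), and the female value turned to -0.13 without del/del library 5.

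Hoxb5, Hoxb6 and Hoxb7 lie on the far side of Hoxb4 and were below the filter. They were named after their values were seen. Hoxb5, a marker of long-lived stem cells in mice, read 8 times in female het and 41 times in female del/del libraries, and 6 and 23 times in the male groups. Hoxb6 read 22 and 55 times in the female groups and 6 and 30 times in the male groups. Hoxb7 read 12 and 30 times in the female groups and 3 and 21 times in the male groups, with every male del/del library (0.139, 0.133, 0.355 and 0.359 CPM) above every male het library (0, 0.0494, 0.0580 and 0.0781). Male het libraries had mostly lower totals (9788112 to 19958091) than male del/del libraries (19748770 to 22614546), so read numbers alone overstate the male differences. The ratios of depth-scaled reads in females were 5.11 for Hoxb5 (95% exact interval 2.37 to 12.6), 2.49 for Hoxb6 (1.5 to 4.29) and 2.49 for Hoxb7 (1.24 to 5.35). In males they were 2.67 for Hoxb5 (1.06 to 8.02), 3.48 for Hoxb6 (1.43 to 10.2) and 4.88 for Hoxb7 (1.46 to 25.5). These intervals cover counting error and not the spread between animals.

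In the fit over both sexes with no filter, 26 Hox genes could be tested. Of these 22 were higher in del/del, where 50.1% of all genes were, and 9 had an unadjusted p under 0.05, all higher, against 4.47% of all 18912 genes, and 0 were called (background 0.412%). Hoxb6 had a log2 fold change of 1.52 (quasi-likelihood adjusted p = 0.340), Hoxb7 of 1.58 (adjusted p = 0.566) and Hoxb5 of 1.88 (adjusted p = 0.623). Leaving out each library in turn gave Hoxb6 values between 1.35 and 1.95. The rest of HoxB was nearly silent: Hoxb1 and Hoxb8 were at 0, Hoxb2 read 3 times, Hoxb9 2 times in 1 library and Hoxb13, a gene of the tail end and prostate, 16 times in 5 libraries.

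HoxD, best known from limbs and the urogenital tract, showed no level above a few reads. Hoxd8 read 8 times, all in del/del libraries: 5 in female library 2 and 3 in male libraries 1 and 3. Hoxd3 read 7 times and Hoxd4 6 times, and since 13.2% of the Hoxd4 exon bases also belong to Hoxd3 a read there cannot be given to 1 of them. Hoxd3 read 4 times in het and 3 times in del/del libraries. Without the filter, Hoxd8 had a log2 fold change of 2.92 (SE 1.21, quasi-likelihood adjusted p = 0.672), and without female del/del library 2 it was 1.57.

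The difference between sexes in the response to genotype was tested by its own term. It called 0 of 10 Hox genes (background 0% of 14017 genes, with 1.45% at an unadjusted p under 0.05, 0 Hox genes among them), and the Hox p-values were between 0.351 and 0.835. Between the sexes themselves, HoxA was higher in female het (17.4 to 21.8 CPM) than in male het libraries (11.9 to 14.2 CPM) with no overlap, while HoxB overlapped (5.96 to 8.51 against 5.66 to 8.41 CPM). No test of sex was made, and the sexes were deposited as separate tables, so sex and anything that went with the tables cannot be told apart.

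Hox genes varied together only in part from library to library. After removing the group means, log levels of HoxA gene pairs correlated with a median r of 0.26 over 21 pairs and 18 libraries, from -0.02 to 0.64, and pairs from different clusters with a median of 0.13 over 23 pairs. The closest pair within HoxA was Hoxa2 with Hoxa3 (0.64), then Hoxa5 with Hoxa6 (0.62). Hoxb3 and Hoxb4 correlated at 0.60. Hoxc4 ran with Hoxb3 (0.66) and against Hoxa7 (-0.50). All pairs share the library's depth and cell makeup, and these values are descriptions.

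No tested gene in or around the clusters differed detectably. Within 250 kb of the clusters lie 50 other rows, of which 21 had no reads and 17 could be tested over both sexes. Of the tested rows 3 lay inside HoxA and 1 inside HoxB, and the others lay outside. None of the 17 was called (lowest quasi-likelihood adjusted p 0.555), 6 of 17 were higher in del/del, and their median log2 fold change was -0.03. Of untested rows inside, Gm11538 in HoxB read 5 times in female het, 49 in female del/del and 9 in each male group. Hotairm1 in HoxA read 7 and 23 times in the female groups, 0 and 5 in the male groups. Gm53 in HoxB read 0 and 36 times in the male groups. In HoxA, 5730596B20Rik read 30 and 20 times in the female groups, 3 and 12 in the male groups. Inside HoxA, the antisense RNA Hoxaas3 (2700086A05Rik in the tables) was at 4.77 CPM in female het and 5.14 in female del/del libraries, and 2.65 and 3.42 in the male groups (log2 0.22, SE 0.12). Gm20653, which overlaps Hoxa3, had 0.66 (SE 0.43), Hoxaas2 -0.07 (SE 0.44) and the flanking Skap2 -0.0017 (SE 0.05). Around HoxB, Hoxb3os had -0.13 (SE 0.27), Skap1 -0.23 (SE 0.21), Snf8 -0.03 (SE 0.06) and Ube2z -0.0095 (SE 0.04). Around HoxC, where Hoxc4 differed most, Copz1 had -0.15 (SE 0.06, quasi-likelihood adjusted p = 0.555), Cbx5 -0.10 (SE 0.07), Calcoco1 -0.07 (SE 0.07) and Smug1 -0.07 (SE 0.10). Around HoxD, Lnp had -0.09 (SE 0.08) and Mtx2 0.03 (SE 0.06). Hotair inside HoxC and Evx2 beside HoxD were at 0. The microRNA rows Mir10a, Mir196a-1, Mir196a-2 and Mir615 were at 0 too, in libraries made from polyA RNA.

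The partners and regulators of Hox proteins gave 2 calls over both sexes, where 0.556% of all 14017 tested genes were called. Among TALE cofactors, which bind DNA together with Hox proteins, 7 of 9 listed genes were tested and 1 was called, Meis3. It was at 2.44, 1.90, 2.0, 1.17 and 2.09 CPM in female het and 3.82, 1.77, 3.98, 3.28 and 5.88 in female del/del libraries. In males, het libraries were at 3.39, 4.30, 4.12 and 4.06 CPM and male del/del libraries at 7.81, 5.02, 8.24 and 6.83, with no overlap. Of 18026 genes with reads in males, 1.32% had every del/del library above every het library. The log2 fold change of Meis3 over both sexes was 0.88 (SE 0.19, quasi-likelihood adjusted p = 0.0287). The call was lost under limma voom (adjusted p = 0.0898) and in 12 of 18 fits that left out 1 library, where the adjusted p reached 0.0667 (without male het library 1) and the value stayed between 0.76 and 0.97. Of the others, Pbx3 had 0.46 (SE 0.14, adjusted p = 0.287) and Pknox1 -0.14 (SE 0.06, adjusted p = 0.721). Meis1, the usual partner of Hoxa9 in leukaemia, had 0.12 (SE 0.12).

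Of 24 Polycomb genes, all tested, 1 was called, Bmi1, a subunit of Polycomb repressive complex 1 that sustains stem cells. Bmi1 was at 59.6, 60.4, 74.8, 62.3 and 57.8 CPM in female het and 78.8, 63.4, 78.9, 78.2 and 79.2 in female del/del libraries. It was at 71.2, 78.7, 82.5 and 82.1 CPM in male het and 93.6, 95.4, 104 and 99.6 in male del/del libraries. These did not overlap, a separation that 1.32% of genes with reads had in males. Its log2 fold change was 0.29 (SE 0.06, adjusted p = 0.0206), and the adjusted p was 0.0530, 0.0550 and 0.0512 without female het library 5, male het library 1 and male del/del library 3. Of the 24 genes 7 were higher in del/del, with a median of -0.06; Mtf2 had -0.15 (SE 0.06), Cbx2 -0.23 (SE 0.11) and Rnf2 -0.11 (SE 0.07), none called. Among 15 trithorax-side genes 0 were called and 6 were higher (median -0.02), with Ash2l at -0.12 (SE 0.04, adjusted p = 0.553), Men1 at -0.07, Mllt3 at -0.11 and Brpf1 at -0.06.

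Upstream of the clusters, the Cdx factors were near absent, with Cdx1 and Cdx4 at 0 reads and Cdx2 at 3. The retinoic acid receptors were tested and not called, with Rara at 0.23 (SE 0.18), Rarb at -0.29 (SE 0.25) and Rarg at 0.13 (SE 0.25). Of 7 genes known as Hox targets or co-expressed with Hox genes in blood, 0 were called: Flt3, a receptor of early lymphoid progenitors and dendritic cells, had 0.38 (SE 0.14, adjusted p = 0.553), Erg -0.32 (SE 0.16) and Myb -0.22 (SE 0.17). Their median was 0.0095, beside the median of -0.00048 over all genes.

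Markers of other cells in the sort were read beside the Hox genes. Of 13 markers of plasmacytoid dendritic cells, which also carry B220, 12 were higher in del/del over both sexes, with a median log2 fold change of 0.38 and 1 called, Il3ra (0.55, SE 0.08, adjusted p = 0.00111). Their mean log2(CPM + 0.5) was 6.39 to 7.15 in female het, 6.51 to 7.56 in female del/del, 5.83 to 6.02 in male het and 5.84 to 6.44 in male del/del libraries. None of the 13 was at 0 in any library, and their summed level was 3467 to 4742, 3632 to 5016, 2925 to 3466 and 2887 to 3332 CPM in those groups. Siglech, a defining gene of these cells, was at 150.1 to 359 CPM in female het and 143 to 452 in female del/del libraries, and at 72.7 to 106 and 61.3 to 152 in the male groups.

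Female del/del libraries 3 and 5 had the highest mean log level of the 10 Hox genes (1.62 and 1.58) and also the highest dendritic cell score (7.45 and 7.56). The same 2 libraries had the highest Malat1 of all 18 (1912 and 1876 CPM, the next at 1527) and the highest summed myeloid markers among females (4082 and 4065 CPM, the next at 2910). They also had the highest summed stem and progenitor markers of all 18 (90.0 and 101 CPM, the next at 80.2). In mean log level of those markers male del/del library 3 was higher (1.76, against 1.57 and 1.62). Female del/del library 1 had the next highest dendritic cell score (7.33). Its Hox level was 1.29, near that of female het library 3 (1.27). In males the dendritic cell score was 6.44, 6.28, 6.43 and 5.84 in del/del libraries against 5.83 to 6.02 in het libraries, so it went largely with genotype. With the dendritic cell score as a covariate the median Hox log2 fold change in males went from 0.27 to -0.0084, and 4 of the 7 male values, those of Hoxa3, Hoxa5, Hoxa6 and Hoxa9, were below 0. Over all genes, that male fit called 5, against 16 without the covariate. Over both sexes the log2 fold change of Hoxc4 went from 2.02 to 1.47 (SE 0.60), that of Hoxa2 from 0.86 to 0.75 (SE 0.31) and that of Hoxa9 from 0.39 to 0.25 (SE 0.16), each at a quasi-likelihood adjusted p of 0.999. Without a filter, Hoxb6 went from 1.52 to 1.21 (SE 0.51), Hoxb5 from 1.88 to 2.0 (SE 0.78) and Hoxc9 from 3.78 to 2.71 (SE 1.04). The call of Meis3 was lost with it (0.65, SE 0.19, adjusted p = 0.341), and so was that of Bmi1 (0.30, SE 0.07, adjusted p = 0.0836).

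**Figure D5:**
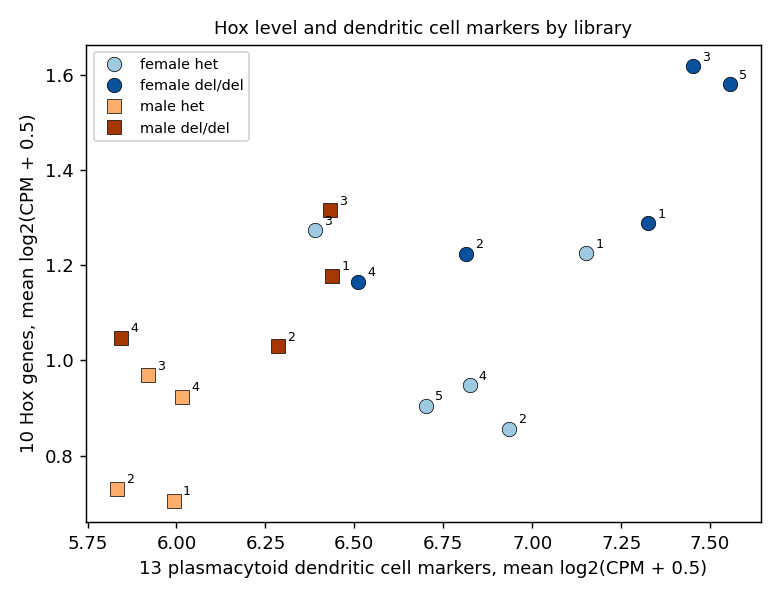
Mean log2(CPM + 0.5) of the 10 Hox genes tested in females (vertical axis) against that of 13 plasmacytoid dendritic cell markers (horizontal axis), 1 point per library with its library number. Female del/del libraries 3 and 5 are at the upper right, and male del/del library 4 lies among the male het libraries in marker level (5.84 against 5.83 to 6.02) at a higher Hox level (1.05 against 0.71 to 0.97).

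Red cell markers were lower, without a call. All 8 tested erythroid markers were lower in del/del over both sexes (median log2 -0.80, 0 called), with Hbb-bs at 107 ± 89.4 CPM in female het and 37.5 ± 12.6 in female del/del libraries. With their score as a covariate Hoxc4 had 1.47 over both sexes (SE 0.57) and Hoxa2 0.70 (SE 0.31). Malat1, a nuclear RNA used here as a sign of RNA quality, was at 785 to 1527 CPM in female het, 948 to 1912 in female del/del, 374 to 1049 in male het and 627 to 991 in male del/del libraries. With it as a covariate the median Hox log2 fold change in females went from 0.40 to 0.14. The covariates were fitted 1 at a time, and the part each cell type has in the Hox differences was not tested beyond that.

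Stem and progenitor cells are the place where Hox genes are usually high, so their markers were read too. Of 10 such markers 7 were tested, 3 were higher in del/del, 0 were called and the median log2 fold change was -0.13. Their summed level was 57.7 to 74.1 CPM in female het, 45.3 to 101 in female del/del, 56.6 to 69.1 in male het and 52.4 to 74.9 in male del/del libraries. Mecom and Procr, which were not tested, were near the floor of detection, with Mecom at 0.0380 and 0.0731 CPM in the female groups and Procr at 0.145 and 0.185. The tested markers were Slamf1, Cd34, Kit, Flt3, Gata2, Hlf and Mycn. Over both sexes Hlf had -0.37 (SE 0.42), Cd34 -0.45 (SE 0.27) and Flt3 0.38 (SE 0.14). With that score as a covariate Hoxc4 had 2.02 and Hoxa9 0.42 over both sexes, close to the values without it. No myeloid, T and NK cell, plasma cell, stromal or megakaryocyte marker was called: the medians over both sexes were 0.18 for 12 myeloid, -0.17 for 9 T and NK, -0.05 for 5 plasma cell, -0.03 for 7 stromal and -0.10 for 3 megakaryocyte markers. In males all 12 myeloid markers were higher in del/del (median 0.24), where 50.6% of all genes were. In females 7 of the 12 were (median 0.15). No myeloid score was fitted as a covariate. The 9 B-lineage markers had a median of -0.06 and 0 calls.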

How the data were processed

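Gene expression in sorted bone marrow B cells was read from count tables, 1 for each sex, of 18 libraries. Raw read counts, 1 row per gene, were deposited by the authors. Tools named in the submitters' processing notes are TopHat, Trim Galore, FastQC, bcl2fastq and edgeR 3.32.1, and builds mm10 and GRCm38, per the submitters' processing notes. Neither the counter nor the annotation release nor the strand setting is given in the sources used here. The authors' deposited comparison tables hold log2 fold changes, p-values with adjusted p-values and a score (the F statistic), per the file headers, and they are quoted only where named. The 4 columns that hold group means, a signal value per the file headers, were not used.

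The members and gene lists were chosen with earlier results of these data known. Counts were fitted over whole tables in R 4.3.3 with edgeR 4.0.16 (quasi-likelihood test, TMM factors, filterByExpr at minimum count 10 and total 15), in each sex, over both sexes with sex as a term, and for the interaction. Benjamini-Hochberg adjustment ran over all genes of a fit, and a gene was called at an adjusted p under 0.05. SE is the size of the log2 fold change over the square root of F. The filter needed about 0.441 CPM in 5 female or 0.504 CPM in 4 male libraries. Total counts, 9788112 to 29405395, set the precision. Intervals for ratios of reads are exact binomial at 95%, for counting error only. Hox genes with a mean of at least 0.5 CPM in a group are given by library. Of neighbours and lists, up to 4 genes of smallest p and any called gene are named. Libraries of a group differed beyond sampling noise (lowest chi-square per gene 6.27). The labels give each library an animal number and do not state pairs. Male het and del/del animals of nearest number deviated together (correlations 0.143, 0.229, 0.140 and 0.360). Alternatives were RLE factors, DESeq2 1.42.0, limma 3.58.1 voom, other filters, the pairs as a block, 4 covariates and leaving out each library. Leaving out libraries for the genes with no filter, and all alternatives for Meis3, Bmi1, Il3ra and Smchd1, were added after seeing the data. The test was run on simulated data first. Results for some genes are not reported here.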

Additional observations from a re-analysis of the deposited data

Results flagged for a closer look

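A library far from the others of its group was looked for in the 10 Hox genes given by library and in Hoxb5, Hoxb6, Hoxb7 and Hoxc9, in 55 groups of 4 or 5 libraries with any spread. The test flags about 1 in 20 groups by chance where values are normally spread, which need not hold for genes with few reads. A group with reads in 1 library only is flagged whatever its value, as with Hoxc9 in female het libraries. In all, 6 were flagged. Hoxc4 was at 0.593 CPM in female het library 1, where the others lay between 0 and 0.135. Hoxc9 was at 0.618 CPM in female del/del library 3, where the others lay between 0 and 0.143, and at 0.0339 CPM, 1 read, in female het library 3, where the others were at 0. Hoxb4 was at 4.67 CPM in female het library 2, below the others at 6.43 to 6.73. Hoxa7 was at 6.80 CPM in male het library 4, above the others at 5.29 to 5.51. Hoxa2 was at 0.355 CPM in male del/del library 2, below the others at 0.511 to 0.532.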

How the results depend on the processing

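The number of Hox genes called stayed at 0 in females, males, both sexes and the interaction under all 10 alternatives and in every fit without 1 library at the usual filter. The median Hox log2 fold change without a filter was 0.74 in females, 0.63 in males and 0.89 over both sexes. It was 0.14 in females with Malat1 as a covariate and -0.0084 in males with the dendritic cell score. Leaving out 1 library gave medians of 0.25 to 0.52 in females, 0.18 to 0.39 in males and 0.32 to 0.44 over both sexes.

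The sign changed in 25 of 831 values, each of 1 gene in 1 refit, and the cause was not tested. The 831 include Meis3, Bmi1, Il3ra and Smchd1, which never changed sign. In females Hoxb3 changed sign in 5 of 10 fits without 1 library and in 4 of 10 alternatives. Female Hoxb4 did so in 3 of 10 and 4 of 10. In females under limma voom Hoxb3 was -0.069 and Hoxb4 -0.030. With Malat1, Hoxb3 was -0.47, Hoxb4 -0.31 and Hoxa6 -0.061 in females, and Hoxb3 -0.032 over both sexes. With the dendritic cell score, Hoxb3 was -0.58 and Hoxb4 -0.17 in females, Hoxb3 was -0.14 over both sexes, and in males Hoxa3 was -0.018, Hoxa5 -0.059, Hoxa6 -0.019 and Hoxa9 -0.0084. With the erythroid score, Hoxa5 was -0.22, Hoxa6 -0.025, Hoxb3 -0.40 and Hoxb4 -0.015 in females. Without 1 library, female Hoxb3 ran from -0.13 to 0.25 and Hoxb4 from -0.091 to 0.20.

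Over both sexes Hoxc4 had its lowest adjusted p, 0.0638, with DESeq2, and 0.0811 with a replicate block of nearest animal numbers. The pairing of female numbers did not hold throughout (correlations 0.360, 0.114, -0.04, 0.194 and 0.205), and the block changed no Hox call in either sex. Meis3 was not called with Malat1 (0.70, adjusted p = 0.146) or the erythroid score (0.86, adjusted p = 0.132), nor Bmi1 with Malat1 (0.27, adjusted p = 0.0596). Under the filter on the mean over all libraries Hoxa2 and Hoxc4 were not tested over both sexes. Depth limits most of all HoxC, HoxD and Hoxb5 to Hoxb7, where a library held at most 45 reads of a gene.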
